A study of Homo sapiens with 6 samples.

Results

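The genes described here encode the machinery that opens DNA replication origins and runs the replication fork. They are 49 genes chosen by name for their function, with earlier results of these data known. All 49 had a row in the count table, out of 32078 genes with a name. The libraries were made from poly(A) RNA of PANC-1, an established cell line from a human pancreatic carcinoma. The control group is 3 libraries whose treatment label is none, and the EV group is 3 libraries labelled as treated with extracellular vesicles (EVs) from cancer-associated fibroblasts (CAFs), the activated fibroblasts of tumour stroma. No allele, dose, exposure time or vehicle is given in the sources used here, and the protocol text describes vesicle treatment for the controls too, so group membership was taken from the title and treatment label of each library. Separate cultures are not mentioned for the libraries of a group, and the p-values may therefore reflect technical spread alone.

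Replication starts when the origin recognition complex (ORC) binds origins and, with CDC6 and CDT1, loads rings of the MCM helicase onto DNA, a step called licensing that geminin (GMNN) blocks outside G1. The kinases CDC7 and CDK2 then recruit CDC45 and the GINS complex, which turn the ring into an active helicase. Behind it, polymerase alpha-primase lays down primers, polymerase epsilon copies the leading strand, and polymerase delta with the PCNA clamp copies the lagging strand in Okazaki fragments. Many of these genes are known targets of E2F transcription factors and are transcribed at the border of G1 and S phase. In RNA from a whole culture, a larger share of cells in S phase and more RNA per cell cannot be told apart.

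Library totals ran from 21647493 to 27498709 counts. Replication genes held 0.432% to 0.464% of the counts in the control libraries and 0.584% to 0.600% in the EV libraries, and the ranges did not overlap. Of the 6 markers listed for carcinoma epithelium, KRT8 and KRT18 were abundant (means of 3063 and 1271 CPM in controls, where CPM is the count scaled to a common library size), while EPCAM and CDH1 had 0 counts in all libraries, which allows up to 0.138 CPM for counting error alone. KRT7 was at 0.279 CPM in controls, and KRT19 was lower in the EV libraries (log2 fold change -0.48). The summed level of the 12 fibroblast markers in the table was 377 to 414 CPM in controls and 366 to 408 CPM in EV libraries. Most of that sum was COL6A3 and COL1A2, which moved in opposite directions. The 2 members called higher were COL1A2 (means of 114 CPM in controls and 186 in EV libraries) and COL5A1 (0.265 and 0.847). The 2 called lower were COL6A3 (263 and 172) and ACTA2 (5.23 and 2.79). DCN, LUM, THY1 and POSTN were at 0 in all libraries. The part of RNA from other cells in the results below was not tested.

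In the EV libraries 38 of the 48 replication genes that could be tested rose and 0 fell, against 20.2% of all 14670 tested genes called higher and 20.7% called lower (edgeR's quasi-likelihood test, adjusted p under 0.05). Among tested genes at least as abundant as the least abundant of the 48, 26.7% were called higher. Besides edgeR, DESeq2 and limma-voom also called 0 replication genes lower, and at an unadjusted p under 0.05 edgeR had 0 lower and 41 higher, against 24.8% lower and 24.0% higher over all tested genes. The median log2 fold change, EV over control, was 0.44, against -0.01 over all tested genes. The rises were modest: 14 genes were called and at least 1.5-fold higher, where 3.67% of all tested genes were. The largest were those of FEN1 (2.13-fold) and POLE2 (2.04-fold). In 39 of the 48 genes all EV libraries stood above all control libraries, which was true of 25.1% of all tested genes.

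**Figure D1:**
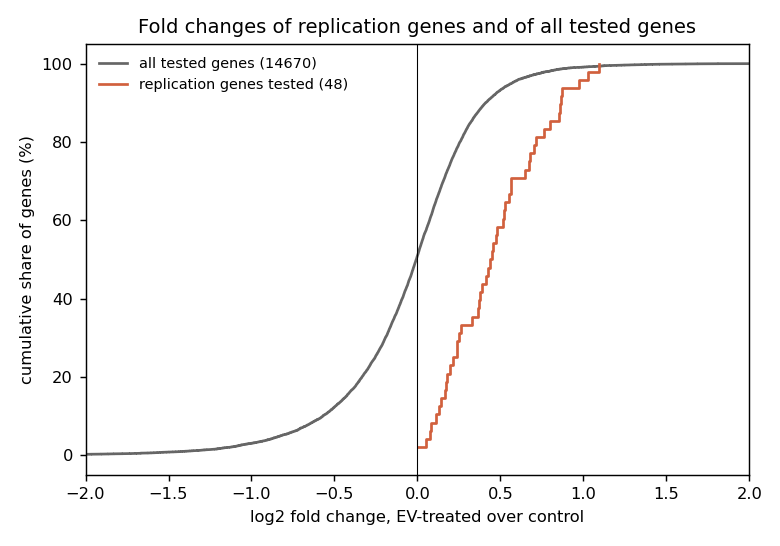
Cumulative share of genes (y axis, percent) against log2 fold change, EV over control (x axis), for the 48 tested replication genes and all 14670 tested genes. The curve of replication genes begins at 0.00 (POLD2), ends at 1.09 (FEN1) and has its median at 0.44, while the median of all genes is -0.01; a few of all genes lie beyond the plotted range.

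The libraries were not equal within groups. Control 1 was the highest of the controls for 28 of the 48 genes, where it was the highest for 33.5% of all tested genes. Relative to the control mean of each gene, the median over the 48 genes was 0.05, -0.05 and -0.02 on the log2 scale in controls 1, 2 and 3, and 0.42, 0.43 and 0.47 in EV libraries 1, 2 and 3. Without control 1 the count of higher genes was 41, and without EV 3 it was 35.

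**Figure D2:**
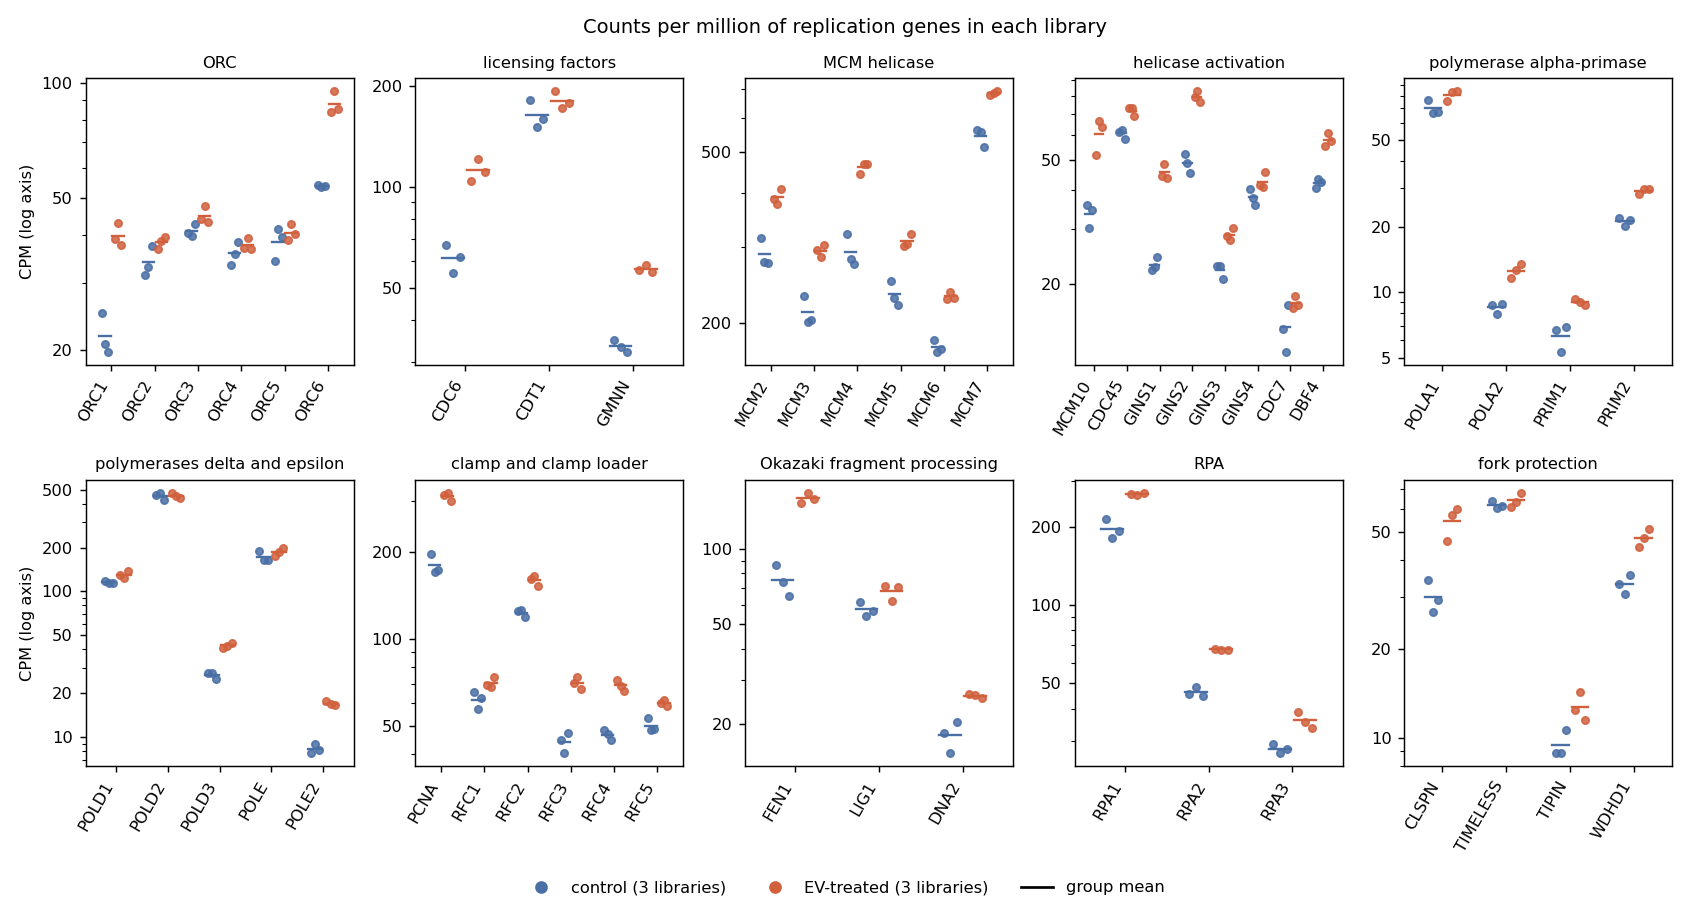
CPM on a log axis of each tested replication gene in each library, in 10 panels by complex or role; points are libraries (3 control, 3 EV), and short lines are group means. The points of the MCM helicase, the clamp loader and RPA separate by group in every gene shown, while those of ORC2, ORC4, ORC5, CDT1, CDC7, POLA1, POLD2, POLE and TIMELESS overlap.

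Promoter sequences from RefSeq (build GRCh38.p14, 250 bases before to 50 after each start) were matched by symbol for 42 of the 49 genes. The letters of the E2F consensus, TTTCGCGC or TTTGGCGC on either strand, were found for 12 of the 42 genes (28.57%) and for 1.40% of the 27305 genes in that table. The 27305 genes were not limited to those tested here, so their shares are not matched to the replication genes. The CCAAT box, the letters CCAAT on either strand, was found for 25 of 42 (59.52% against 39.72%), and the cell cycle homology region, TTTGAA on either strand, for 1 of 42, DBF4 (2.38% against 18.17%). Matches that overlap each other were all kept, such as the E2F forms on opposite strands in MCM6. The 12 genes were POLE2, GINS1, CDC6, GMNN, POLA2, MCM3, MCM2, TIPIN, MCM6, MCM7, POLA1 and POLE. A match describes letters and not a bound site.

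Of the 12 genes with an E2F match 11 rose (median 0.46 on the log2 scale), and of the 29 tested genes without a match 21 rose (median 0.38). The fold changes spanned 0.11 to 1.03 with a match and 0.00 to 1.09 without, so the 2 ranges largely overlapped. FEN1, ORC1, CLSPN and MCM10, all among the genes with high fold changes, had no match. Only the exact letters were searched, so a site that differs in any base counts as no match. The absence of a match therefore does not mean that a gene lacks an E2F site.

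**Figure D3:**
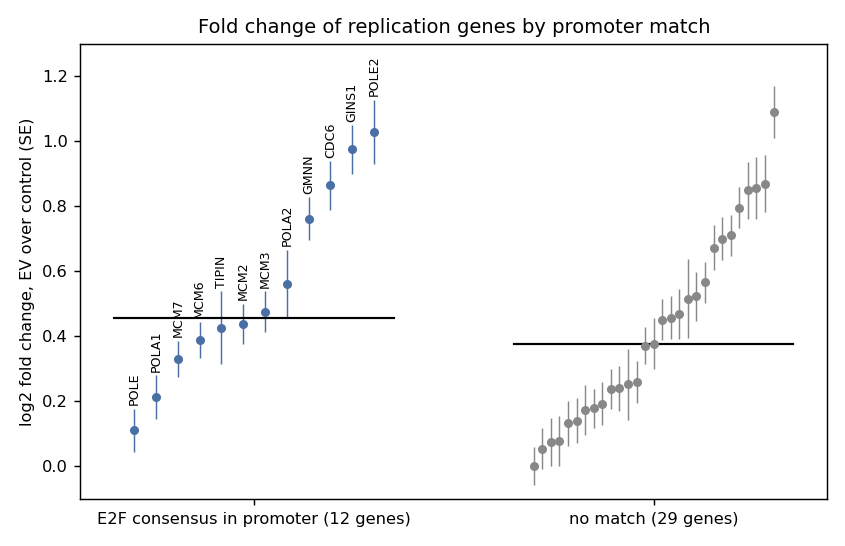
log2 fold change, EV over control, of 41 tested replication genes with a promoter sequence (y axis; points with SE), split by an E2F consensus match (12 genes) or none (29 genes); black lines are medians, 0.46 and 0.38. The points span 0.11 to 1.03 with a match and 0.00 to 1.09 without.

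The promoters of 6 genes are shown: pairs from 1 complex with unlike fold changes (ORC1 and ORC2, POLE2 and POLE), the licensing inhibitor GMNN, and MCM6, where the E2F letters repeat. For GMNN it is the annotated start with the E2F match. Each run covers 190 bases before the start and 10 after, 5′ to 3′ on the gene's strand, with E2F and CCAAT letters in capitals. ORC1 lies at chr1:52404414-52404613 (minus strand), ORC2 at chr2:200963651-200963850 (minus strand) and GMNN at chr6:24775223-24775422 (plus strand). MCM6 lies at chr2:135876434-135876633 (minus strand), POLE2 at chr14:49688205-49688404 (minus strand) and POLE at chr12:132687333-132687532 (minus strand).
ORC1: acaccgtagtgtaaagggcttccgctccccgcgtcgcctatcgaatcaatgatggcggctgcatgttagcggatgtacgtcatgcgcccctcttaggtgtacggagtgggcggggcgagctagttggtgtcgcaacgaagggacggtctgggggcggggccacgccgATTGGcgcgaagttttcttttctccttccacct
ORC2: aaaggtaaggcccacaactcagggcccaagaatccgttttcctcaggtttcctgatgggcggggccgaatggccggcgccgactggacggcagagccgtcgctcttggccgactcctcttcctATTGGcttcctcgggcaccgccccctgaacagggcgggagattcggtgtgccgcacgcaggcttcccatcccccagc
GMNN: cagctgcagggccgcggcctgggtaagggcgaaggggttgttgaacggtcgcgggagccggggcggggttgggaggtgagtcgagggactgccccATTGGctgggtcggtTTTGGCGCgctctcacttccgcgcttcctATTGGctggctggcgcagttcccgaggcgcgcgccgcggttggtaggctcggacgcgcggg
MCM6: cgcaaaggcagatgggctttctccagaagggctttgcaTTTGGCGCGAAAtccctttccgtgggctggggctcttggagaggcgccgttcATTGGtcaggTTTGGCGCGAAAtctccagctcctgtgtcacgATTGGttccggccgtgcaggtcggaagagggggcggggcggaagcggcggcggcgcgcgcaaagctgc
POLE2: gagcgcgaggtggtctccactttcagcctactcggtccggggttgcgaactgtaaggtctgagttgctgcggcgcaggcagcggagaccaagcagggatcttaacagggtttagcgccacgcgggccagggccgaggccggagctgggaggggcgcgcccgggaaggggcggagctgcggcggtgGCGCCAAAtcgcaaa
POLE: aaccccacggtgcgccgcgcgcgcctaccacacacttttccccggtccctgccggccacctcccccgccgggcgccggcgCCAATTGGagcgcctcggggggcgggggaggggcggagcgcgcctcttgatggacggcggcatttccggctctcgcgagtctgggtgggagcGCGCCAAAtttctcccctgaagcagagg
ORC1 and ORC2 each held a CCAAT box on the opposite strand and no exact E2F match. In ORC1 the letters at the CCAAT box, ATTGGcgc, differ from TTTGGCGC only in the first base. POLE2 also held a stretch that differs from it in a single base, tttagcgc. Near matches were not counted over all promoters, and whether they go with the fold changes was not tested. MCM6 held the E2F letters at 2 places, each on both strands, at positions -152 and -90 from the start. GMNN held them at position -80, between CCAAT boxes. POLE and POLE2 held the same E2F letters, on the opposite strand, at positions -18 and -5.

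Within ORC, the complex that marks origins, ORC1 and ORC6 rose and ORC2, ORC3, ORC4 and ORC5 did not pass. ORC1, the largest subunit and an ATPase, was at 24.98, 20.8 and 19.8 CPM in controls 1 to 3 and at 39.0, 43.0 and 37.6 CPM in EV libraries 1 to 3. All EV libraries were higher, and the log2 fold change was 0.87 with an SE of 0.09 (adjusted p = 3.26e-07). Values written this way below, as 0.87 ± 0.09, are log2 fold changes with their SE from edgeR's test. ORC6, which joins the complex most loosely, was at 54.0, 53.5 and 53.9 CPM against 83.8, 94.9 and 85.6 CPM (0.71 ± 0.06, adjusted p = 7.03e-08).

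The core subunits ORC2 to ORC5 had fold changes of 1.05 to 1.13. ORC2 was at 31.4, 32.9 and 37.6 CPM in controls and 36.8, 38.7 and 39.6 CPM in EV libraries, and the groups overlapped (0.17 ± 0.08, adjusted p = 0.0789). It passed without control 3 (0.25, adjusted p = 0.0142). ORC3 was at 40.6, 39.7 and 42.8 CPM against 44.2, 47.6 and 43.2 CPM, with the groups just apart (0.13 ± 0.07, adjusted p = 0.128). ORC5 was at 34.2, 41.5 and 39.4 CPM against 38.9, 42.7 and 40.3 CPM (0.08 ± 0.08, adjusted p = 0.438). ORC4, the lowest, was at 33.4, 35.6 and 38.5 CPM against 37.1, 39.4 and 36.9 CPM (0.07 ± 0.07, adjusted p = 0.435). In both ORC4 and ORC5 the groups overlapped. Per length of transcript, ORC1 was at 7.01 CPM per kilobase in controls and 12.8 in EV libraries, and ORC6 at 33.0 and 54.1.

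Because a ratio of 2 genes within a library needs no scaling, 6 ratios were compared with an exact two-sided permutation test, whose smallest p with 3 against 3 libraries is 0.1, so that none could pass 0.05. The log2 ratio of ORC1 to ORC2 counts was -0.64 ± 0.30 in controls and 0.05 ± 0.12 in EV libraries (SD, n = 3 each). All EV libraries were above all controls, a difference of 0.69 (exact permutation p = 0.1, 0.12 adjusted over 6 ratios).

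Among the licensing factors, CDC6 and GMNN rose and CDT1 did not pass. CDC6, the ATPase that recruits the helicase to ORC, was at 67.3, 55.4 and 61.8 CPM in controls and 104, 121 and 111 CPM in EV libraries (0.86 ± 0.07, adjusted p = 4.08e-08). GMNN, the inhibitor of CDT1, was at 35.1, 33.3 and 32.2 CPM against 56.4, 58.3 and 55.8 CPM, with narrow groups far apart (0.76 ± 0.07, adjusted p = 4.16e-08). CDT1, the loading factor itself, was at 181, 151 and 159 CPM against 192, 172 and 177 CPM. Its control 1 lay above 2 of the EV libraries, and the fold change was 0.14 ± 0.07 (adjusted p = 0.107). Without control 1 CDT1 passed at 0.22 (adjusted p = 0.0168), and with a correction for GC content and length it passed at 0.18 (adjusted p = 0.0172).

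CDT1 was also compared with its inhibitor within each library. The log2 ratio of CDT1 to GMNN was 2.37, 2.18 and 2.31 in controls and 1.77, 1.56 and 1.67 in EV libraries. The EV ratios were all below the controls, by 0.62 on the log2 scale (exact permutation p = 0.1, 0.12 adjusted over 6 ratios). These are RNA levels, and both proteins are known to be controlled by degradation.

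All 6 subunits of the MCM helicase rose, by 1.26- to 1.57-fold, and in each of them the groups did not overlap. MCM4 had the highest fold change, from 322, 282 and 275 CPM to 444, 468 and 468 CPM (0.65 ± 0.06, adjusted p = 2.07e-07). MCM7 had the lowest, from 560.3, 556 and 512 CPM to 675, 684 and 689 CPM (0.33 ± 0.06, adjusted p = 0.000126). MCM3 was at 0.48, MCM2 at 0.44, MCM5 at 0.41 and MCM6 at 0.39 on the log2 scale. In every one of the 6 subunits control 1 was the highest control. Although the subunits form a ring with equal numbers of each, their transcript levels per length were not equal. MCM7 was at 184 and MCM6 at 47.2 CPM per kilobase in controls, and at 231 and 61.8 in EV libraries. MCM7 shares exon sequence with AP4M1 on the opposite strand in GENCODE v29, and no strand setting is known for the counting. The level of MCM7 and its ratio with MCM10 below are therefore uncertain. E2F letters were found in the promoters of MCM2, MCM3, MCM6 and MCM7, and MCM4 and MCM5 had no promoter sequence. Whether these letters go with the fold changes within the ring was not tested.

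Of the genes that activate the helicase, 6 of 8 rose. GINS1, a GINS subunit, had the highest fold change, from 22.2, 22.7 and 24.5 CPM to 44.4, 48.5 and 43.6 CPM (0.98 ± 0.07, adjusted p = 9.07e-09). The 4 GINS subunits act as a single complex but ranked far apart, with GINS2 at 0.70 ± 0.07 and GINS3 at 0.38 ± 0.08. GINS4 was at 40.3, 37.7 and 35.8 CPM against 41.4, 40.8 and 45.5 CPM. It was the lowest of this group, and its libraries separated by a narrow gap without passing (0.17 ± 0.07, adjusted p = 0.0687). GINS4 passed without control 1 (0.21, adjusted p = 0.0419) and with the correction for GC content and length (0.17, adjusted p = 0.0413).

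MCM10, which helps the loaded helicase start unwinding, was at 35.9, 30.2 and 34.6 CPM in controls and 51.6, 66.3 and 63.7 CPM in EV libraries (0.85 ± 0.09, adjusted p = 4.56e-07). Its EV 1 was the lowest of the EV libraries but above every control. Relative to MCM7, the log2 ratio of MCM10 was -4.02 ± 0.17 in controls and -3.50 ± 0.18 in EV libraries (SD, n = 3 each; exact permutation p = 0.1, 0.12 adjusted over 6 ratios). CDC45, the helicase cofactor, rose less, at 0.24 ± 0.06 (adjusted p = 0.00417).

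The kinase CDC7 was at 14.4, 12.1 and 17.2 CPM in controls and 16.8, 18.3 and 17.1 CPM in EV libraries. Control 3 lay within the EV range, and the gene did not pass (0.25 ± 0.11, adjusted p = 0.0713). It passed without control 3 (0.39, adjusted p = 0.00577) and with no filter on low counts (0.27, adjusted p = 0.0375). Its activating subunit DBF4 was at 40.6, 43.3 and 42.5 CPM against 55.3, 61.0 and 57.5 CPM and rose (0.46 ± 0.07, adjusted p = 1.96e-05). The log2 ratio of DBF4 to CDC7 overlapped between groups, at 1.54 ± 0.27 and 1.74 ± 0.01 (SD, n = 3 each; exact permutation p = 0.4, also 0.4 adjusted over 6 ratios). That difference of 0.19 became 0.34 without control 2 and 0.07 without control 3.

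**Figure D4:**
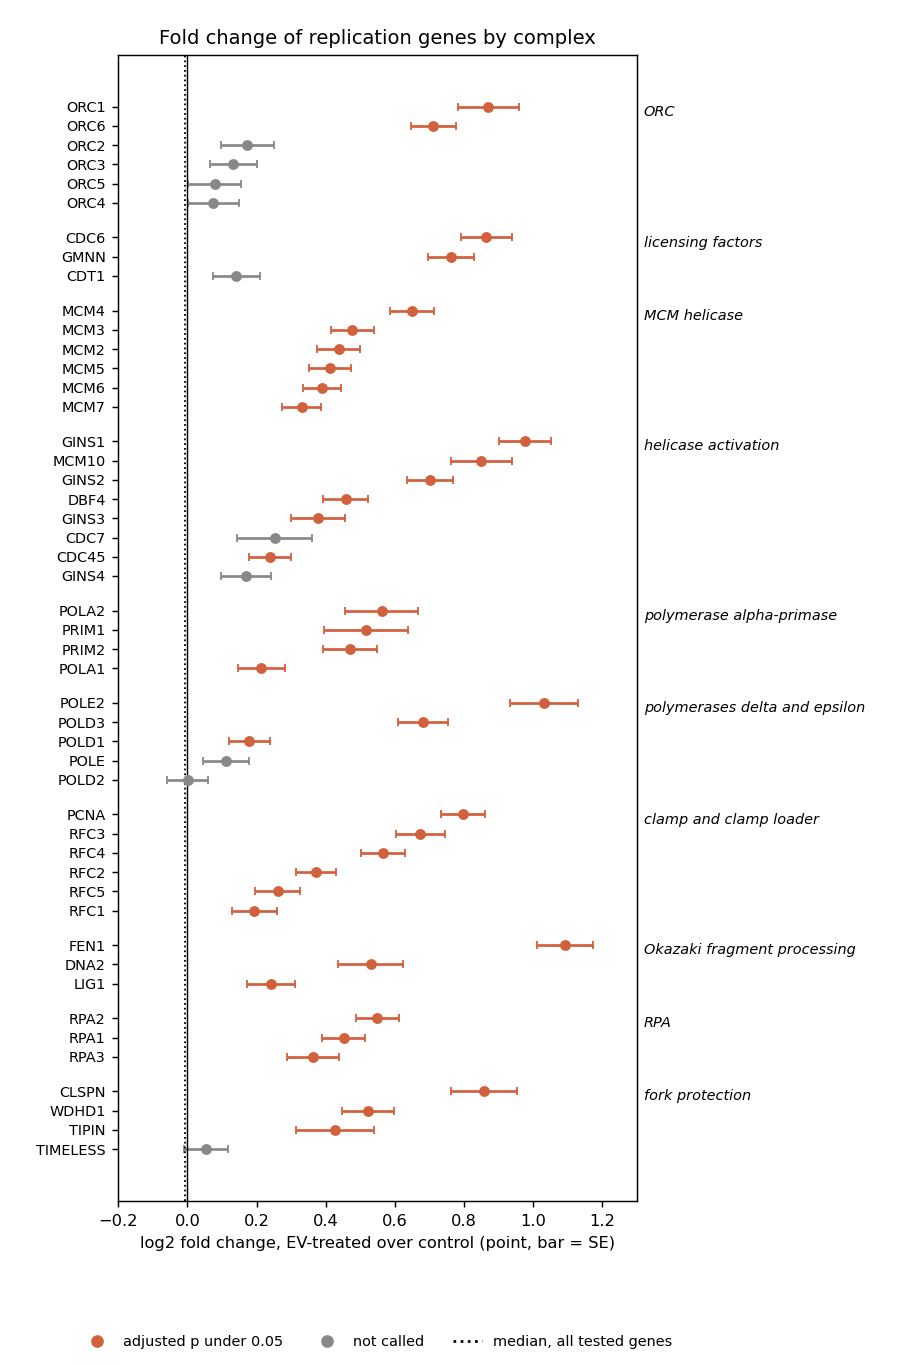
log2 fold change, EV over control, of the 48 tested replication genes (points; bars are SE), grouped by complex and ordered within it; coloured points have an adjusted p under 0.05 and grey points do not, and the dotted line is the median of all tested genes (-0.01). The MCM helicase spans 0.33 to 0.65, while ORC spans 0.07 to 0.87 and polymerases delta and epsilon span 0.00 to 1.03.

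All 4 genes of polymerase alpha-primase, which makes the RNA-DNA primers, rose. POLA2, the regulatory subunit, was at 8.74, 7.97 and 8.83 CPM in controls and 11.6, 12.6 and 13.5 CPM in EV libraries (0.56 ± 0.11, adjusted p = 0.000308). The primase genes PRIM1 and PRIM2 were at 0.52 ± 0.12 and 0.47 ± 0.08. POLA1, the catalytic subunit, was at 76.0, 66.6 and 67.0 CPM against 75.8, 83.5 and 83.6 CPM, so that control 1 stood just above EV 1. Its fold change was the lowest of the 4 (0.21 ± 0.07, adjusted p = 0.0166), and POLA1 did not pass without control 2 (0.18, adjusted p = 0.0641), control 3 (0.18, adjusted p = 0.0559), EV 2 (0.19, adjusted p = 0.0726) or EV 3 (0.20, adjusted p = 0.0625). POLA2 and PRIM1 share exon sequence with neighbouring genes in GENCODE v29, so their counts are uncertain.

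In the polymerases that extend the strands, the accessory subunits POLE2 and POLD3 had the high fold changes, while the catalytic subunit POLD1 rose 1.13-fold. The catalytic subunit POLE and the accessory subunit POLD2 did not pass, so the accessory subunits did not rise as a group. POLE2, the second subunit of polymerase epsilon, was at 7.71, 8.99 and 8.17 CPM in controls and 17.6, 16.8 and 16.5 CPM in EV libraries (1.03 ± 0.10, adjusted p = 1.61e-07). POLE, its catalytic subunit, was at 189.7, 164 and 166 CPM against 176, 185 and 199 CPM. Control 1 was higher than 2 of the EV libraries, and POLE did not pass (0.11 ± 0.07, adjusted p = 0.194). POLE passed without control 1 (0.18, adjusted p = 0.0395) and with the correction for GC content and length (0.17, adjusted p = 0.0107). The E2F letters in the POLE and POLE2 promoters shown above were the same, at different positions. Whether these letters go with the fold changes was not tested. The log2 ratio of POLE2 to POLE was -4.38 ± 0.22 in controls and -3.46 ± 0.13 in EV libraries. All EV libraries had the higher ratio, by 0.92 (SD, n = 3 each; exact permutation p = 0.1, 0.12 adjusted over 6 ratios).

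POLD3, an accessory subunit of polymerase delta, was at 27.3, 27.5 and 24.8 CPM against 40.8, 42.4 and 44.5 CPM (0.68 ± 0.07, adjusted p = 7e-07). POLD1, the catalytic subunit, was at 118, 114 and 114 CPM against 129, 124 and 139 CPM (0.18 ± 0.06, adjusted p = 0.0213), and the call was lost without EV 3 (0.14, adjusted p = 0.105). POLD2 had a mean of 453 CPM in both groups, from 459, 476 and 424 CPM in controls and 471, 452 and 437 CPM in EV libraries (0.00 ± 0.06, adjusted p = 0.991). It was also the most abundant of the 49 genes per length, at 279.8 CPM per kilobase in controls and 279.9 in EV libraries. The log2 ratio of POLD3 to POLD1 was -2.12 ± 0.07 in controls and -1.61 ± 0.06 in EV libraries, with no overlap (SD, n = 3 each; exact permutation p = 0.1, 0.12 adjusted over 6 ratios). Both POLD3 and POLD1 share exon sequence on their own strand with another gene in GENCODE v29, so their counts and this ratio are uncertain.

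**Figure D5:**
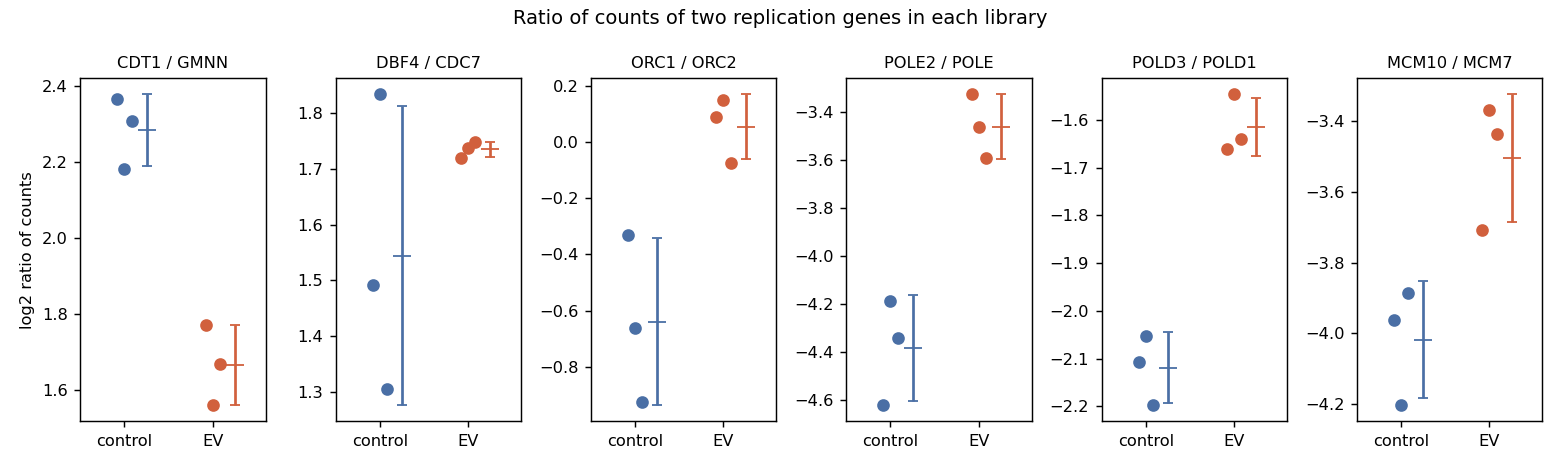
log2 ratio of the counts of 2 replication genes in each library (y axes, one scale per panel); points are libraries, and the dash with a bar is the mean with SD over 3 libraries. The EV libraries lie apart from the controls in 5 of the 6 panels, below them for CDT1 / GMNN, and overlap them for DBF4 / CDC7.

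The sliding clamp and all 5 subunits of its loader rose, with no overlap between groups. PCNA, the ring that tethers polymerase delta to DNA, was at 196, 169.8 and 173 CPM in controls and 315, 320.0 and 301 CPM in EV libraries (0.80 ± 0.06, adjusted p = 1.42e-08). Among the loader subunits RFC3 was at 0.67 ± 0.07 and RFC4 at 0.57 ± 0.06, followed by RFC2 at 0.37 ± 0.06 and RFC5 at 0.26 ± 0.06. RFC1, the large subunit that is specific to this loader, was lowest, at 65.4, 57.3 and 62.4 CPM against 69.3, 68.4 and 73.8 CPM (0.19 ± 0.07, adjusted p = 0.0239). The RFC1 call was lost without control 2 (0.14, adjusted p = 0.114) and without EV 3 (0.17, adjusted p = 0.0964).

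All 3 tested genes of Okazaki fragment processing rose. FEN1, which cuts the flap displaced at each fragment, was at 86.5, 74.1 and 64.7 CPM in controls and 153, 168 and 159 CPM in EV libraries. The lowest EV library was far above the highest control, and the 2.13-fold rise was the largest among the 48 tested genes (1.09 ± 0.08, adjusted p = 5.67e-09). DNA2, a nuclease for long flaps, was at 0.53 ± 0.09, and LIG1, the ligase that seals fragments, was the lowest, at 61.3, 54.2 and 56.7 CPM against 70.9, 61.9 and 70.4 CPM (0.24 ± 0.07, adjusted p = 0.00945). FEN1 shares exon sequence on its own strand with FADS2 in GENCODE v29, so some of its reads could belong to that gene.

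RNASEH2A, the catalytic subunit of the enzyme that removes ribonucleotides from DNA, could not be tested. It had 10, 3 and 6 counts in controls and 14, 4 and 6 counts in EV libraries, too few for the filter. Its partners, named here after their values were seen, were detected: RNASEH2B had means of 20.7 and 25.4 CPM and rose (0.29 ± 0.08), and RNASEH2C had 61.9 and 63.6 CPM and did not pass (0.04 ± 0.07, adjusted p = 0.666). RNASEH2A shares exon sequence on its own strand with THSD8 in GENCODE v29, and whether the counting moved its reads was not tested.

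The 3 subunits of RPA, which coats single-stranded DNA, all rose, by 1.29- to 1.46-fold. RPA2 was at 45.5, 48.3 and 44.6 CPM against 68.0, 67.4 and 67.1 CPM, the highest of the 3 (0.55 ± 0.06, adjusted p = 1.31e-06). RPA1 was at 0.45 ± 0.06. RPA3 was at 29.3, 26.9 and 28.0 CPM against 38.9, 35.5 and 33.7 CPM (0.36 ± 0.08, adjusted p = 0.000842).

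Fork protection genes rose except TIMELESS. CLSPN, encoding the checkpoint mediator claspin, was at 34.2, 26.8 and 29.3 CPM in controls and 46.4, 57.1 and 60.0 CPM in EV libraries (0.86 ± 0.10, adjusted p = 1.09e-06). WDHD1, which links the helicase to polymerase alpha, was at 0.52 ± 0.08. TIPIN, the partner of TIMELESS, was at 8.87, 8.85 and 10.6 CPM against 12.5, 14.3 and 11.5 CPM (0.43 ± 0.11, adjusted p = 0.0049). It shares exon sequence on its own strand with the pseudogene RPL9P25 in GENCODE v29, so its counts are uncertain. TIMELESS itself was at 63.5, 60.3 and 61.0 CPM against 60.6, 63.3 and 67.9 CPM, with the groups overlapping (0.05 ± 0.06, adjusted p = 0.524).

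Beyond the 49 genes, 57 of 58 further genes of replication and its polymerases could be tested, and 33 rose and 5 fell, beside 20.2% higher and 20.7% lower over all tested genes. Their median was 0.29 on the log2 scale. Fitted fold changes were above 0 for 44 of the 57, and for 7191 of all 14670 tested genes. Of 12 partners of licensing and firing 10 rose, and all 12 fitted fold changes were above 0. Among them CDC25A, the phosphatase that activates CDK2, was at 0.90 ± 0.08, the cyclin gene CCNE1 at 0.72 ± 0.07 and CDK2 at 0.58 ± 0.07. LRWD1 and DBF4B did not pass. Of 7 genes of CDT1 turnover 3 rose, namely SKP2 (0.66), RBX1 (0.60) and DTL (0.42), all parts of ubiquitin ligases, and FBXO31 fell (-0.25 ± 0.07, adjusted p = 0.00573).

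Of 17 other fork subunits and factors 10 rose. The 3 of lowest adjusted p were DSCC1 of the alternative clamp loader (0.82), LRR1 (0.68) and ATAD5, which unloads PCNA (0.66). POLE3, a polymerase epsilon subunit named here after its values were seen, was at 0.69 ± 0.14, with control 3 at 58.0 CPM well below the other controls at 108 and 112 CPM. Against that direction POLD4, the smallest subunit of polymerase delta, fell from 7.45 ± 0.967 to 5.04 ± 0.794 CPM (SD, n = 3 each; edgeR -0.56 ± 0.14, adjusted p = 0.00349), while POLD1 and POLD3 of the same enzyme rose. The topoisomerase gene TOP1 was just past the threshold (-0.14 ± 0.06, adjusted p = 0.049) and did not pass in 12 of 17 alternatives, among them leaving out any single library other than EV 3 (adjusted p of up to 0.242, without EV 1). Of 10 genes of chromatin assembly at forks 8 rose, those of lowest adjusted p being UHRF1 (0.78), the histone chaperone ASF1B (0.61) and SLBP, which binds histone mRNA (0.54), and all 10 fitted fold changes were above 0. Of the 11 tested translesion and repair polymerases 2 were called higher, POLQ (0.52) and POLH (0.46), and 2 lower, POLL (-0.62) and POLM (-0.30), shares near those of all tested genes, and their median was 0.07. POLM did not pass without control 2 (adjusted p = 0.0856), control 3 (0.0547) or EV 3 (0.117), nor with DESeq2 (0.0785).

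In the authors' deposited table all 49 genes were present, and 38 had a q-value under 0.05. That table gives control over EV, and all 38 were negative in it, where 12.5% of all 24724 genes in the authors' deposited table were. It marked 2 of the 49 as changed, FEN1 at -1.11 and POLE2 at -1.05 on its log2 scale, beside 313 genes (1.27%) marked in that direction in all.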

How the data were processed

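Per the labels' protocols, poly(A) RNA was captured and strand kept through uracil marking. TopHat, RSEM and hg19 appear in the submitters' processing notes without a role or version, and for the counting no strand setting was given in the sources used here. The authors deposited whole-number counts for 32453 features. The 375 features without a gene name (0.0990% to 0.134% of counts) were left out. The authors also deposited a comparison table with log2 fold changes and q-values, used only where named.

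For the 32078 named genes the test was edgeR's (version 4.0.16, R 4.3.3; quasi-likelihood test, TMM factors, filterByExpr, Benjamini-Hochberg over 14670 tested genes, adjusted p under 0.05), which was tested on simulated data. Fold changes are log2, EV over control, and SE is the log2 fold change over the square root of F. CPM uses TMM-scaled library sizes, and a count of 0 allows up to 3 counts. Intervals of this kind cover counting error only, since reads without molecular identifiers are not independent molecules. No 2 libraries agreed within sampling noise.

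The members and gene lists were chosen with earlier results of these data known. Full values are given for the highest and lowest gene of each complex, genes not called and genes in the ratios, with up to 3 called genes per further list and direction. A few others, such as CDC6, are given in full outside the rule, a choice made once their values had been seen. Lengths are of the GENCODE v29 transcript with the longest coding sequence, used only per kilobase. In that annotation 21 of the 49 genes share exon sequence with another gene, 7 of them on the same strand, so their counts are uncertain. Without a known strand setting this also holds for overlaps on the opposite strand, such as MCM7 with AP4M1 and RFC4 with EIF4A2. Protein motifs were not analysed here. Alternatives were other scalings and filters, DESeq2 1.42.0, limma-voom (limma 3.58.1), a stricter threshold, a replicate block, each library left out and, added after seeing the data, a correction for GC content and length.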

Additional observations from a re-analysis of the deposited data

How the results depend on the processing

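Over 17 alternatives the replication genes called higher numbered 35 to 41 and those called lower 0. Leaving out each library in turn gave 35 (without EV 3) to 41 (without control 1). The call and direction of 39 of the 48 genes held in all 17, and the 9 exceptions are POLD2 and the 8 genes whose lost or gained calls stand with their values in the report. Of these, POLA1, POLD1 and RFC1 also missed an adjusted p of 0.01. POLD2, which did not pass in any setting, turned to -0.0185 with upper-quartile scaling, -0.00825 with a filter of 1 CPM in 3 libraries, -0.0444 without control 3 and -0.0195 without EV 1, in a range of -0.0444 to 0.0380 with each library left out. Of the 58 further genes, 3 rather than 5 were lower with DESeq2 and with an adjusted p under 0.01, and 3 to 4 with a library left out. TOP1, lost in 12 of 17 alternatives, also missed with median-ratio scaling, library totals, no count filter, the replicate block (adjusted p = 0.0759) and unnamed features kept, and POLM was lost in 5. POLE3 was at an adjusted p of 0.0505 with DESeq2. Other scalings moved the median of all genes to between -0.03 and 0.00.

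The replicate numbers do not show shared cultures: deviations of same-numbered libraries correlated at -0.04, -0.02 and -0.03, and 0 of 3 EV libraries correlated best with their own number. The best correlations were 0.106 (control 2 with EV 1), 0.095 (control 3 with EV 2) and 0.117 (control 1 with EV 3). Because deviations are taken from each group's own mean over 3 libraries, these correlations are tied to each other. The check therefore cannot settle whether cultures were shared. With the replicate block 38 replication genes were higher and 0 lower, all genes gave 2846 higher and 2897 lower, and the further genes 33 and 4. Ratio differences kept their direction with each library left out. Low counts limited RNASEH2A alone among the 49 genes.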
